A study of Homo sapiens with 3 samples.

Results

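The genes that copy DNA and correct its mismatches were followed in cells labelled KG1, an established human line from acute myeloid leukemia (AML). The members were taken from the pathway annotation that stands beside each gene in the deposited table, as every row with a gene symbol that KEGG, a database of pathways, places in DNA replication or in mismatch repair. This rule uses no measured value and gave 70 of the 61806 genes. Of these, 38 were the named replication and repair genes and 32 were pseudogenes, near-identical copies and other rows that carry the same annotation. A further 15 rows of the 2 pathways had no symbol and were left out.

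RNA was sequenced from 3 libraries of cells labelled KG1 that all carried a lentiviral vector. One library, NC, came from cells with the control vector, a scrambled hairpin in the study's methods. The others, shUCP2#2 and shUCP2#3, came from cells with 1 of 2 different short hairpin RNAs (shRNA) against UCP2, an uncoupling carrier of the inner mitochondrial membrane. Vector-positive cells were sorted by flow cytometry, and the methods describe the selected cells as clones. No label says that the libraries were independent cultures, so the p-values given here measure only the spread between these samples, which may be technical.

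The libraries held 18375090 (NC), 16475165 (shUCP2#2) and 17562153 (shUCP2#3) gene counts. At this depth, 0 counts allow a level of at most 0.163, 0.182 and 0.171 CPM, the count scaled to library size, if 3 counts are taken as the limit of counting error. The transcript of UCP2 was not lower under the hairpins, with 651, 608 and 649 counts in NC, shUCP2#2 and shUCP2#3 (log2 fold change 0.06, SE 0.15, edgeR adjusted p = 0.888), so the libraries are named by their labels throughout. Only 2 of 10 markers of AML progenitors were above 10 CPM in all 3 libraries, with CD34 at 0, 10 and 0 counts and CD38, HLA-DRA and MPO at 0 in all, against 9 of 12 erythroid markers. HBG2, a fetal globin gene, was at 1601, 1098 and 1117 FPKM. These markers go against the label of an AML progenitor line, so the identity of the cells is in doubt, and KG1 is used here as the label only. The erythroid markers summed to 4158 CPM in NC, 3123 in shUCP2#2 and 3153 in shUCP2#3, and 7 of their 11 tested genes were lower under the hairpins. Collagen transcripts of fibroblasts stood out in shUCP2#2, with COL1A1 at 0, 507 and 0 counts and COL1A2 at 2, 806 and 3. The summed monocyte markers ran from 35.3 to 41.5 CPM, the T cell markers from 44.9 to 60.9 and the B cell markers from 3.13 to 5.40, and the part of these shifts in the results given here was not tested.

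Replication begins when the ring of MCM proteins, loaded on DNA as an inactive helicase before S phase, is switched on and unwinds the strands. RPA coats the single strands, primase with polymerase alpha lays short primers, the RFC clamp loader sets the PCNA ring on the primer end, and polymerases delta and epsilon then extend while held by PCNA. FEN1, DNA2 and the RNase H enzymes remove the primers. Behind the fork, MutS dimers find mispaired bases and MutL dimers direct the removal of the new strand, with EXO1, RPA, PCNA, RFC and polymerase delta used again, so that many of these genes stand in both pathways. Transcription of much of this machinery is controlled by E2F factors, which switch it on as cells leave G1.

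Because E2F is the textbook regulator of the family, promoter windows from RefSeq (GRCh38.p14, from 250 bases before to 50 bases after each annotated start) were searched on both strands for the E2F-type cores TTTGGCG and TTTCCCG and for the CCAAT box, CCAAT. Windows were found for 30 of the 38 named genes, the genes without one including POLD3, MCM4, RPA2, RPA3, RPA4 and DNA2. On opposite strands the cores can share up to 2 bases, and the CCAAT box can share at most 1 base with a core. The following sites are shown because they are letters that many of the replication genes have in common, 10 bases on either side of a core in capitals, each 5′ to 3′ on the strand that carries the core.
MCM6, chr2:135876517-135876543, minus strand: attggtcaggTTTGGCGcgaaatctcc
MCM6, chr2:135876579-135876605, minus strand: gggctttgcaTTTGGCGcgaaatccct
POLA2, chr11:65261928-65261954, plus strand: gcacaaaccaTTTGGCGggtttttccg
POLE, chr12:132687343-132687369, plus strand: aggggagaaaTTTGGCGcgctcccacc
POLE2, chr14:49688202-49688228, plus strand: atatttgcgaTTTGGCGccaccgccgc
MCM7, chr7:100101567-100101593, plus strand: aggcgccgggTTTCCCGcggtccgagc
RFC3, chr13:33818085-33818111, minus strand: agagacaagtTTTCCCGcgagctccaa
SSBP1, chr7:141738260-141738286, plus strand: aggggagccgTTTCCCGcagcgctagc
PCNA, chr20:5126664-5126690, plus strand: acgcacgcctTTTCCCGcccctgacgc

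Either core was present in 14 of the 30 genes (46.7%), against 7.3% of the 27303 genes with a window. TTTGGCG stood in 6 of the 30 genes (20%) and in 2.32% of all genes, TTTCCCG in 9 (30%) and in 5.19%, and CCAAT in 15 (50%) and in 39.7%. A gene can have several windows, 43 in the 30 genes and 35114 in the 27303. The 27303 genes were not limited to those with a tested transcript, and the share among tested genes was not counted. In both sites of MCM6 the core is followed by the same letters, cgaaat, as it is in the site of MSH3, which is not shown. The cores did not sort the genes by the expression results that follow: they were present in 3 of the 7 genes with a window whose transcript was lower under the hairpins (MCM7, RFC3 and SSBP1), in 10 of the 21 that did not pass the test and in 1 of the 2 that were higher (RFC1). A match describes the letters of a window and is not a measured binding site.

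**Figure D1:**
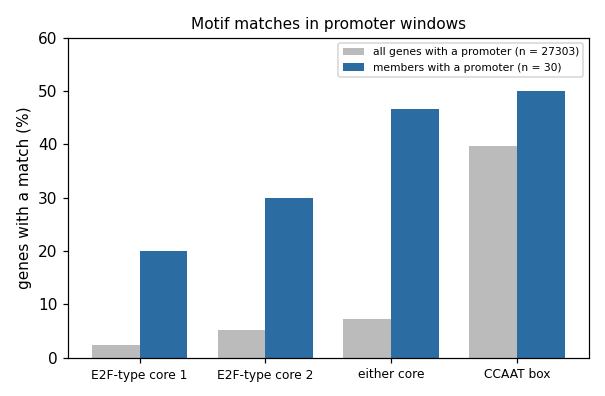
Percentage of genes with at least 1 match in a promoter window (vertical axis) for E2F-type core 1 (TTTGGCG), core 2 (TTTCCCG), either core, and the CCAAT box. Blue bars are the 30 replication and repair genes with a window and grey bars are all 27303 genes with one; the blue bar for either core is at 46.7% and the grey bar at 7.3%.

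Across the machinery, most transcripts did not pass the test in the libraries labelled shUCP2, and of those that passed more were lower than higher. Of 37 named genes that passed the filter on low counts, 9 were lower, 2 were higher and 26 did not pass the test. Over all 15232 genes tested 6.11% were lower and 6.25% higher, or 12.4% in either direction. These shares include genes with few reads and a large SE, and no set matched to the members in level was counted. When genes averaging below 1 FPKM were dropped, 946 of 10937 genes were lower and 991 higher. Of 42 rows of the 2 pathways kept there, 10 were lower and 2 higher. The same limit applies to every later comparison with all genes tested. The lower genes included the helicase subunits MCM7 and MCM4, the polymerase subunits POLE3 and POLD1, the clamp loader subunits RFC5, RFC2 and RFC3, and SSBP1, whose product binds single-stranded DNA in mitochondria. The higher genes were RFC1, the large subunit of the clamp loader, and RNASEH2B, a subunit of RNase H2. The median log2 fold change of the 37 genes was −0.19, against 0.02 over all genes tested, and it was −0.19 in shUCP2#2 and −0.19 in shUCP2#3, 2 values that share the 1 control library. Counted over all 70 rows, 44 were tested, 9 were lower (20.5%) and 2 higher (4.55%), with a median of −0.16. The 32 copies and other rows added 7 tested genes and no call, and 18 of them had 0 counts in every library. Apart from 15 copies of PMS2, described with that gene, the only tested one was RNASEH1P1, a pseudogene of RNASEH1, with 29, 36 and 60 counts (0.82, SE 0.61, edgeR adjusted p = 0.467).

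Of the 31 tested genes in DNA replication 8 were lower (25.8%) and 2 higher (6.45%). Of the 20 in mismatch repair 6 were lower (30%) and 1 higher (5%), against 6.11% and 6.25% over all genes tested. The pathways share 14 of these genes, so their counts are not separate evidence. Of those 14, 5 were lower (POLD1, RFC2, RFC3, RFC5 and SSBP1) and 1 was higher (RFC1).

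**Figure D2:**
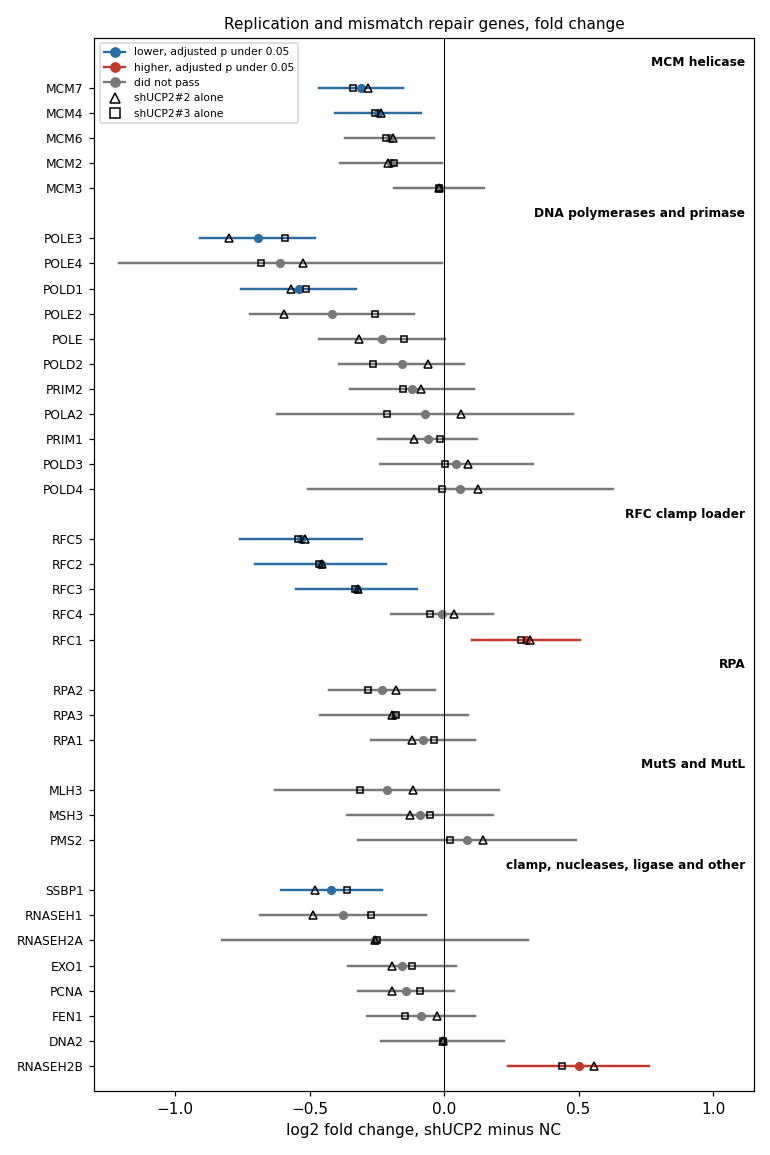
Log2 fold change of the tested genes described in the text, shUCP2 minus NC (horizontal axis), by group. Filled circles are the fitted values with 95% intervals, blue where lower and red where higher at an adjusted p under 0.05 and grey otherwise; open triangles and squares are shUCP2#2 and shUCP2#3 alone against NC. The lowest value is that of POLE3 at −0.69 and the highest that of RNASEH2B at 0.50.

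The test was edgeR's quasi-likelihood test of the 2 libraries labelled shUCP2 against NC, with p-values adjusted over all genes tested (Benjamini-Hochberg, 0.05). It has 1 residual degree of freedom and takes the error of each gene from genes of like abundance, so the lone NC library is assumed to vary like the others, and a limma test or an edgeR fit without the abundance trend called 0 of these genes (12 lower and 1 higher with limma at an unadjusted p under 0.05, and 5 lower and 1 higher with that edgeR fit). In such bulk samples fewer cells in S phase and less RNA per cell cannot be told apart.

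The MCM helicase is a ring of 6 different subunits, of which 5 are annotated to the pathway in the table. MCM7 had 10921 counts in NC, 8019 in shUCP2#2 and 8307 in shUCP2#3, or 135.5, 111.0 and 107.8 FPKM (counts scaled to exon length and library size). Both hairpin libraries thus stood below NC, and MCM7 was lower by the test (log2 fold change −0.31, SE 0.08, edgeR adjusted p = 0.00200). MCM4 went from 9416 counts in NC to 7144 and 7581, and was lower as well (−0.25, SE 0.08, edgeR adjusted p = 0.0253). MCM6, with 6222, 4875 and 5153 counts, was at −0.20 (SE 0.08, edgeR adjusted p = 0.105), and MCM2, with 2924, 2260 and 2471 counts, was at −0.20 (SE 0.10, edgeR adjusted p = 0.196), so neither passed. The exception in size was MCM3, at 91.4, 90.0 and 90.7 FPKM, whose log2 fold change was −0.02 (SE 0.08) and turned to 0.0047 with upper quartile scaling. MCM5, the ring's other subunit, has no pathway entry in the table and is no member, and it had 28.5, 26.9 and 26.7 FPKM (−0.09, SE 0.09, edgeR adjusted p = 0.640).

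MCM7 lies on chromosome 7 (100092728 to 100101940, minus strand) and MCM4 on chromosome 8 (47960185 to 47978160, plus strand), in GRCh38 coordinates as in the deposited table. The start of MCM4 stands 7 bases from that of PRKDC, the catalytic subunit of the DNA-dependent protein kinase of end joining, which is transcribed away on the other strand. PRKDC had 10389, 8698 and 10520 counts (−0.01, SE 0.08, edgeR adjusted p = 0.980), so that of the facing genes only MCM4 passed; the difference between them was not tested. TPRA1, whose start is 143 bases from that of MCM2, was at −0.02 (SE 0.31).

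FPKM, used to compare levels between genes, divides by all exonic bases of a gene, which may exceed the length of the transcripts made. In FPKM the order of the ring was MCM7, MCM3, MCM6, MCM4, MCM2 and MCM5, and no neighbours overlapped over the 3 libraries. The order depends on these lengths. In CPM, which is not scaled by length, MCM4 in NC (513) stood below MCM7 (595) but above MCM6 (339) and MCM3 (334). The ring's subunits are joined in equal number. MCM7, with 4386 exonic bases, had 4.32 times the mean FPKM of MCM5, with 7268, and that ratio rests on the lengths. The 6 transcripts summed to 423 FPKM in NC, 373 in shUCP2#2 and 370 in shUCP2#3, and MCM7 made 32.0% of the sum in NC and 29.8% and 29.2% under the hairpins.

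Among the subunits of polymerase epsilon, POLE3 was lower and the others did not pass. POLE3, a small histone-fold subunit of polymerase epsilon that also serves in chromatin remodelling, had 2227 counts in NC, 1142 in shUCP2#2 and 1419 in shUCP2#3, or 46.5, 26.6 and 31.0 FPKM. It had the lowest log2 fold change of the 37 genes, −0.69 (SE 0.11, edgeR adjusted p = 2.75e-08), which is 0.619 times the control level. Its neighbour C9orf43 overlaps it by 622 bases on the other strand but held 1, 12 and 3 counts. POLE4, the histone-fold partner of POLE3, was at a like size with few reads, 173, 107 and 103 counts (−0.61, SE 0.31, edgeR adjusted p = 0.211). POLE2, the second subunit of the enzyme, had 700, 413 and 563 counts (−0.42, SE 0.16, edgeR adjusted p = 0.0578) and passed only when the genes were restricted to a mean FPKM of at least 1 (−0.41, edgeR adjusted p = 0.0447). POLE, the catalytic subunit, had 1478, 1059 and 1281 counts (−0.23, SE 0.12, edgeR adjusted p = 0.232). All 4 epsilon transcripts were below NC in both hairpin libraries, and differences between the subunits were not tested.

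Polymerase delta showed its call in the catalytic subunit instead. POLD1, on chromosome 19 (50384204 to 50418018, plus strand), had 2130 counts in NC and 1283 and 1435 under the hairpins, or 23.5, 15.8 and 16.6 FPKM. Its log2 fold change was −0.54 (SE 0.11, edgeR adjusted p = 3.45e-05), with −0.57 in shUCP2#2 and −0.51 in shUCP2#3, so both libraries were well apart from NC. The accessory subunits of delta did not pass: POLD2 had 1487, 1275 and 1191 counts (−0.16, SE 0.12), POLD3 had 795, 755 and 766 (0.05, SE 0.14) and POLD4 had 160, 156 and 153 (0.06, SE 0.29). POLD4 overlaps RAD9A on the other strand by 6201 bases, and RAD9A held 131, 152 and 155 counts, so reads of these genes cannot be told apart without the strand. LIPT2, whose start is 127 bases from that of POLD3, held 12, 16 and 18 counts (0.61, SE 1.18).

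Primase and polymerase alpha, which begin every new strand, gave no call. PRIM1, the catalytic subunit of primase, had 3346, 2766 and 3187 counts (−0.06, SE 0.09), PRIM2 had 1505, 1267 and 1302 (−0.12, SE 0.12) and POLA2, the second subunit of polymerase alpha, had 181, 169 and 150 (−0.07, SE 0.28). POLA1, the catalytic subunit of alpha, has no pathway entry in the table and had 1168, 895 and 987 counts (−0.20, SE 0.13, edgeR adjusted p = 0.372). PXMP2, which starts 211 bases from POLE on the other strand, was at −0.02 (SE 0.25). Over the 11 polymerase and primase members, 2 were lower (18.2%, against 6.11% over all genes tested), 0 higher and 9 did not pass. Their median was −0.16. In shUCP2#2 alone that median was −0.11 and in shUCP2#3 alone −0.21.

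In FPKM the levels of these subunits were far apart. PRIM1 was highest at 63.8, 58.8 and 63.6 FPKM, followed by POLE3, POLD1, PRIM2, POLE2, POLD2, POLD3, POLE, POLA1, POLE4, POLD4 and POLA2, and the ends of that order differed 36.2-fold in mean FPKM. Neighbours overlapped over the libraries at POLE2 with POLD2, at POLA1 with POLE4 and at POLE4 with POLD4. The 12 transcripts, with POLA1, summed to 199 FPKM in NC, 158 in shUCP2#2 and 168 in shUCP2#3. POLE3 alone went from 23.4% of that sum in NC to 16.8% and 18.4%, while PRIM1 went from 32.0% to 37.2% and 37.8%.

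The RFC clamp loader, which opens the PCNA ring and sets it on primed DNA, was the group with the most calls. Of its 5 subunits 3 were lower (60%), 1 was higher (20%) and 1 was level. These are shares of only 5 genes, and the group was not tested as a set. Over all genes tested 6.11% were lower and 6.25% higher. RFC5 had 1803 counts in NC, 1126 in shUCP2#2 and 1188 in shUCP2#3 (−0.53, SE 0.12, edgeR adjusted p = 0.000155). RFC2 had 1438, 938 and 1002 counts (−0.46, SE 0.13, edgeR adjusted p = 0.00430). RFC3 had 1706, 1221 and 1305 counts (−0.32, SE 0.11, edgeR adjusted p = 0.0414). These small subunits belong to the core that all clamp loaders share, and in each of them both hairpin libraries stood below NC by a nearly equal amount. For RFC5 the values were −0.52 and −0.54, for RFC2 −0.45 and −0.46, and for RFC3 −0.32 and −0.33 (shUCP2#2 and shUCP2#3 against NC). The call on RFC3 was the least firm, with an edgeR adjusted p of 0.0618 with upper quartile scaling and 0.0557 without the filter on low counts. With DESeq2 the calls on RFC2 (DESeq2 adjusted p = 0.0881) and RFC3 (DESeq2 adjusted p = 0.222) were lost, and that on RFC5 was kept.

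The other small subunit, RFC4, did not pass, with 2810, 2573 and 2603 counts, or 51.0, 52.1 and 49.5 FPKM. Its log2 fold change was −0.01 (SE 0.10, 95% interval −0.20 to 0.18), and its sign turned with upper quartile scaling and with the FPKM filter. RFC1, the large subunit of this loader, went the other way, with 2045 counts in NC against 2282 and 2400, or 16.6, 20.6 and 20.4 FPKM. It was higher under the hairpins (0.30, SE 0.10, edgeR adjusted p = 0.0283), and both libraries stood above NC. The call on RFC1 was lost with DESeq2 (DESeq2 adjusted p = 0.160). The FPKM ratio of RFC1 to the mean of RFC2 to RFC5 was 0.445 in NC, 0.661 in shUCP2#2 and 0.667 in shUCP2#3. The ratio of RFC4 to RFC5 was 1.69 in NC and 2.48 and 2.38 under the hairpins. Summed over the 5 subunits the level was 166 FPKM in NC, 145 in shUCP2#2 and 142 in shUCP2#3. In the order of mean level RFC4 came first, RFC2, RFC3 and RFC5 overlapped from one to the next, and RFC1 was last.

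The promoter sequences of RFC1, the higher subunit, and of RFC5 and RFC2, the subunits with the lowest log2 fold changes, are shown because the subunits of this 1 complex differed in direction. RFC1 lies on chromosome 4 (39287456 to 39366375, minus strand), RFC2 on chromosome 7 (74231499 to 74254458, minus strand) and RFC5 on chromosome 12 (118013588 to 118033130, plus strand). Each stretch is part of the RefSeq window, 5′ to 3′ on the strand of the gene, limited to bases outside annotated exons. They end 13, 59 and 2 bases before the RefSeq start of RFC1, RFC2 and RFC5. The stretch of RFC5 lies inside the span of the gene given above, while those of RFC1 and RFC2 lie just beyond theirs. No window at the outer start of RFC5 was searched. Capitals mark an E2F-type core read on the other strand.
RFC1, chr4:39366376-39366612, minus strand: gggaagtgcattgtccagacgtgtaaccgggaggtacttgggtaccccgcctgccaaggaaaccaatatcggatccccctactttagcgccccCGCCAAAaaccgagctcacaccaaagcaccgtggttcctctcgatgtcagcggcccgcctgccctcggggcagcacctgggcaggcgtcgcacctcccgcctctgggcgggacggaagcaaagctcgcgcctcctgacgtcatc
RFC2, chr7:74254459-74254649, minus strand: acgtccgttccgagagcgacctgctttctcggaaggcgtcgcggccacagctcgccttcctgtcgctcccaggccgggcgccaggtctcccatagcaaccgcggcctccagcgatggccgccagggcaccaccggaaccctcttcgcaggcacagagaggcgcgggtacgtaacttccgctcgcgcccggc
RFC5, chr12:118016453-118016700, plus strand: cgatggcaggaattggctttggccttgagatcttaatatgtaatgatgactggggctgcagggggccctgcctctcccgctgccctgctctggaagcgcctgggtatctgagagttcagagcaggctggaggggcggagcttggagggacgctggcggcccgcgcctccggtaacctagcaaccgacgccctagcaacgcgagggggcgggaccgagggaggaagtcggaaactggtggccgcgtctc

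Of these genes only RFC1, the higher one, held a core in its window, and RFC2 and RFC5, both lower, held none. RFC1 and RFC5 held a CCAAT box in the window and RFC2 did not. RFC3 holds TTTCCCG, in the site given with the other E2F-type sites, and RFC4 held neither core nor a CCAAT box. RFC5 overlaps WSB2 on the other strand by 444 bases, which held 829, 672 and 778 counts, and RFC4 overlaps the far more abundant EIF4A2 on the other strand by 18 bases.

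RPA, the trimer that covers single-stranded DNA in replication, repair and recombination, gave no call in its 3 tested subunits. RPA2 had the largest change of them, with 2553, 2015 and 2016 counts, or 70.1, 61.7 and 58.0 FPKM (−0.23, SE 0.10, edgeR adjusted p = 0.123). RPA3 had 944, 737 and 802 counts (−0.19, SE 0.14, edgeR adjusted p = 0.477) and RPA1, the large DNA-binding subunit, had 2704, 2222 and 2534 (−0.08, SE 0.10, edgeR adjusted p = 0.725). All of these were below NC in both hairpin libraries. RPA4, a relative of RPA2, had 0 counts in every library and was not tested. RPA3 overlaps UMAD1 on the other strand by 77897 bases, and UMAD1 held 262, 157 and 219 counts. The order of level was RPA2, RPA1 and RPA3 with no overlap over the libraries, and the mean FPKM of RPA2 was 2.45 times that of RPA1.

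Of the MutS and MutL genes, which form the dimers of mismatch repair, MSH3, MSH6, MLH3 and PMS2 did not pass the test. MSH3, whose dimer recognises larger loops, had 934 counts in NC, 764 in shUCP2#2 and 865 in shUCP2#3, or 9.54, 8.70 and 9.24 FPKM (−0.09, SE 0.14, edgeR adjusted p = 0.790). MSH6, whose dimer recognises single mispairs, has no pathway entry and had 3965, 2989 and 3502 counts (−0.18, SE 0.09, edgeR adjusted p = 0.202). In the order of mean FPKM, MSH6 was followed by MSH3, MLH3 and PMS2, with no neighbours overlapping.

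PMS2 and MLH3, of the MutL family, were low. MLH3 had 330, 272 and 255 counts (−0.21, SE 0.21). PMS2, the endonuclease subunit of the main MutL dimer, had 308, 304 and 301 counts (0.08, SE 0.21), while its 15 copies in the table held 828, 753 and 694 counts together, 5 of them none at all. The most abundant copies were PMS2P1, with 441, 417 and 363 counts (−0.06, SE 0.18), and PMS2CL, with 234, 211 and 187 (−0.12, SE 0.25). Reads that fit several copies may have been placed among them or dropped, so the low level of PMS2 is uncertain. AIMP2, which starts 125 bases from PMS2 on the other strand, had 228, 159 and 207 counts (−0.21, SE 0.26).

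Among the 8 clamp, nuclease and other members, 1 gene was lower and 1 higher (12.5% each), against 6.11% and 6.25% over all genes tested. With 8 genes, 1 call each way is too few to set the group apart from those shares. SSBP1, which keeps the mitochondrial genome's single strands covered and is annotated to both pathways by its likeness to bacterial single-strand binding protein, had 3294 counts in NC, 2107 in shUCP2#2 and 2465 in shUCP2#3. In FPKM these were 36.0, 25.7 and 28.2, and the gene was lower (−0.42, SE 0.10, edgeR adjusted p = 0.000344). RNASEH2B, on chromosome 13 (50909747 to 51024120, plus strand), had 862 counts in NC and 1133 and 1125 under the hairpins, and was higher (0.50, SE 0.13, edgeR adjusted p = 0.00348). RNase H2 is a trimer that removes single ribonucleotides built into DNA, and neither of its other subunits was higher. RNASEH2A, the catalytic subunit, had 177, 132 and 143 counts (−0.26, SE 0.29, edgeR adjusted p = 0.689), and RNASEH2C, which has no pathway entry, had 341, 187 and 182 counts and was lower (−0.77, SE 0.23, edgeR adjusted p = 0.0117). RNASEH2A and RNASEH2C overlap HOOK2 (by 7057 bases) and KAT5 (by 5600 bases) on the other strand, with 92, 83 and 63 counts in HOOK2 and 656, 556 and 572 in KAT5.

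PCNA, the sliding clamp, had the highest mean FPKM of all the members but fewer counts than MCM7. It had 142.9, 124.5 and 134.9 FPKM in NC, shUCP2#2 and shUCP2#3 (3684, 2878 and 3325 counts). PCNA did not pass (−0.14, SE 0.09, edgeR adjusted p = 0.379). FEN1, the flap nuclease of primer removal, had 2227, 1951 and 1937 counts (−0.09, SE 0.10), EXO1, the exonuclease of mismatch repair, had 2248, 1756 and 1989 (−0.16, SE 0.10) and RNASEH1 had 666, 424 and 530 (−0.38, SE 0.16, edgeR adjusted p = 0.104). DNA2, a nuclease and helicase for long flaps, was level, at 16.4, 16.3 and 16.5 FPKM (−0.01, SE 0.12), with a sign that turned with upper quartile scaling and with the FPKM filter. LIG1, the ligase that seals the lagging strand, has no pathway entry. It had 1530, 1117 and 983 counts and was lower (−0.43, SE 0.12, edgeR adjusted p = 0.00646), with −0.29 in shUCP2#2 and −0.58 in shUCP2#3. The genes that start near these on the other strand did not pass: TMEM258 beside FEN1 was at −0.36 (SE 0.14, edgeR adjusted p = 0.0686), CDS2 beside PCNA at 0.06 (SE 0.15), RNASEH1-DT beside RNASEH1 at 0.40 (SE 0.35) and ZSWIM9 beside LIG1 at 0.05 (SE 0.35).

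The annotation leaves out 5 genes (MCM5, POLA1, MSH6, LIG1 and RNASEH2C). With them, 11 of 42 tested genes of the machinery were lower (26.2%) and 2 were higher (4.76%), with a median of −0.19. Over all genes tested 6.11% were lower and 6.25% higher.

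**Figure D3:**
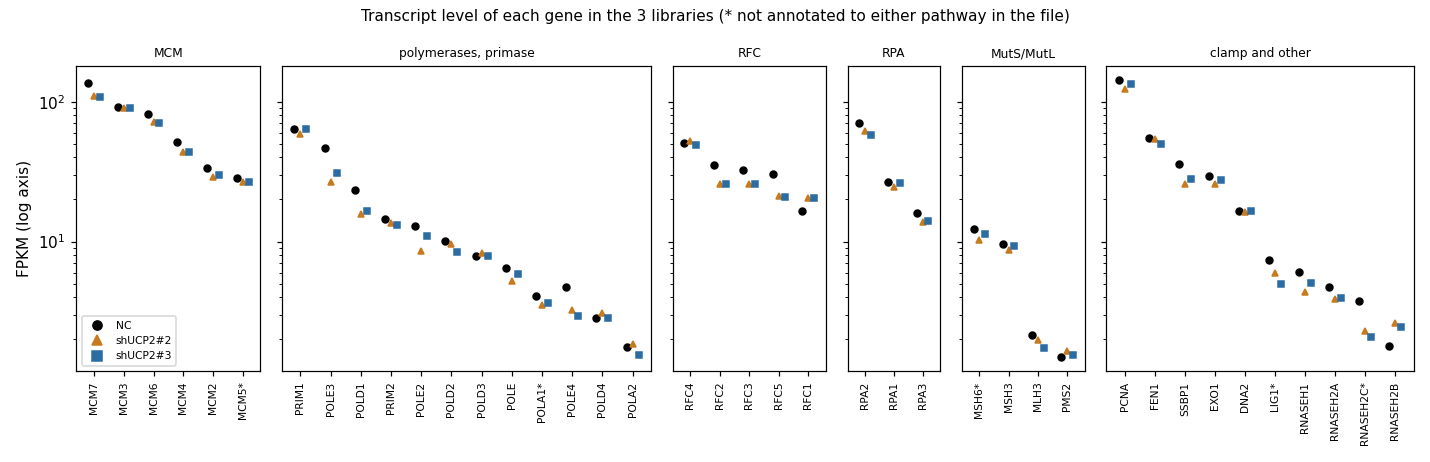
Level of each gene in FPKM (log axis) in NC (black circles), shUCP2#2 (orange triangles) and shUCP2#3 (blue squares), ordered by mean level within each group, 1 point per library. Genes with an asterisk have no entry for either pathway in the table, and RPA4, at 0 in all libraries, is not drawn. PCNA and MCM7 are at the top, POLE3 and RFC5 show NC well above both hairpin libraries, and RFC1 and RNASEH2B show NC below them.

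Other genes that work beside the fork were taken from lists chosen by function. Of 25 genes of origin licensing and firing, 3 were lower (12%, against 6.11% over all genes tested) and 0 higher, with a median of −0.10. RECQL4, a helicase needed to start origins, had 648, 379 and 368 counts (−0.68, SE 0.16, edgeR adjusted p = 0.000792), CDC45, the partner that activates the MCM ring, had 3618, 2512 and 2535 (−0.41, SE 0.09, edgeR adjusted p = 0.000365) and CDC6, which loads the ring, had 2550, 1976 and 1921 (−0.28, SE 0.10, edgeR adjusted p = 0.0477). In each, NC was above both hairpin libraries. The largest changes without a call were those of GINS4, with 480, 334 and 374 counts (−0.33, SE 0.18), and ORC5, with 1016, 697 and 842 (−0.29, SE 0.14).

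Of 14 genes of deoxynucleotide supply, 5 were lower (35.7%, against 6.11% over all genes tested) and 0 higher, with a median of −0.17. The list pools enzymes that make the substrates of the polymerases with others that clear nucleotides, so its counts do not measure their production. DCTPP1, which clears non-standard dCTP, had 960, 563 and 576 counts (−0.64, SE 0.15, edgeR adjusted p = 0.000287). NME1, a nucleoside diphosphate kinase, had 2048, 1345 and 1591 counts (−0.37, SE 0.11, edgeR adjusted p = 0.00845). TYMS, the thymidylate synthase, had 3050, 2131 and 2316 (−0.35, SE 0.10, edgeR adjusted p = 0.00562), and RRM2, the S-phase subunit of ribonucleotide reductase, had 5503, 4017 and 4200 (−0.31, SE 0.09, edgeR adjusted p = 0.00479). RRM1, the large subunit of the reductase, was at 0.00 (SE 0.09), and DTYMK and SAMHD1 did not pass at −0.30 (SE 0.18) and 0.28 (SE 0.19).

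Of 17 factors of fork protection, other clamp loaders and chromatin assembly, 1 was lower and 1 higher (5.88% each), near the 6.11% and 6.25% over all genes tested, with a median of −0.11. DSCC1, a subunit of the alternative clamp loader that also uses RFC2 to RFC5, had 1384, 883 and 987 counts (−0.46, SE 0.13, edgeR adjusted p = 0.00518). TOP2A, the topoisomerase of dividing cells, had 31070, 32023 and 34319 counts and was higher (0.20, SE 0.06, edgeR adjusted p = 0.0162). RTEL1, with 17, 3 and 13 counts, and CHTF8, with 77, 29 and 61, had the largest changes without a call, at −0.99 (SE 1.36) and −0.68 (SE 0.47). Of 8 further mismatch repair genes 6 were tested and none passed (median −0.02), with MSH5 at −0.31 (SE 0.28) and FAN1 at 0.30 (SE 0.21).

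**Figure D4:**
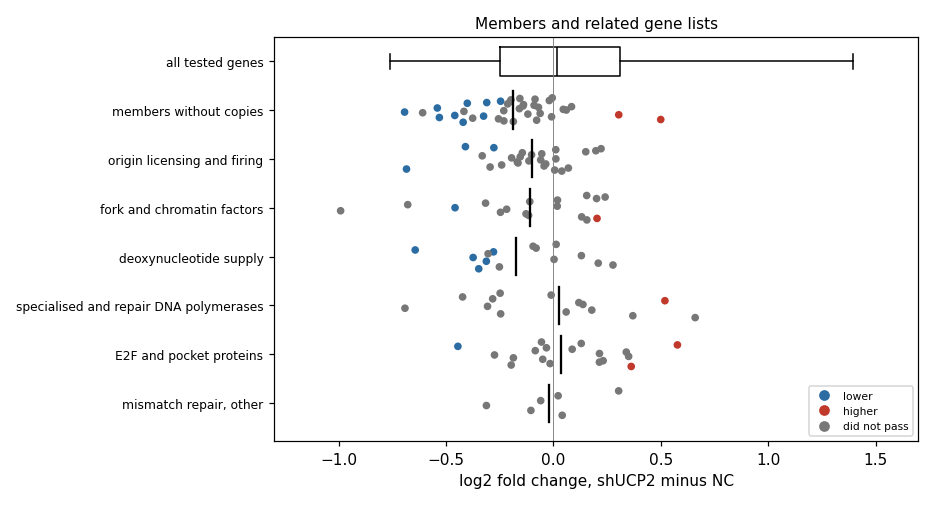
Log2 fold change, shUCP2 minus NC (horizontal axis), of each tested gene in the replication and repair members without copies and in 6 related lists, 1 dot per gene, blue where lower, red where higher and grey where the test was not passed. Black bars are medians, and the box for all 15232 tested genes spans the quartiles with whiskers from the 5th to the 95th percentile. The members' median is −0.19 and that of deoxynucleotide supply −0.17, against 0.02 over all genes.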

How the data were processed

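RNA sequencing of 3 libraries labelled KG1 was used, 1 labelled NC and 2 labelled shUCP2, grouped by the sample titles. The authors deposited 1 table that holds, for each gene and library, the raw read count and a rounded FPKM, found to be that count scaled by exonic length and by the library's total in the table. Their processing notes list HTSeq 0.6.1, HISAT2 2.2.1 and cutadapt 1.9.1, with Cufflinks 2.2.1, DESeq2 and SAMtools 0.1.19, on GRCh38. Overlapping genes cannot be told apart, since strand setting and annotation release were not given in the sources used here. The labels' extraction text describes DNA although the molecule is total RNA, and the series' design text numbers the hairpins 1 and 2; titles and molecule were followed.

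The test on counts was that of edgeR 4.0.16 under R 4.3.3 (TMM scaling after filterByExpr, quasi-likelihood fit with abundance trend, two-sided F test, Benjamini-Hochberg over all 15232 tested genes at 0.05). The F statistic and the fold change gave the SE. Each hairpin library's own value is a difference of log CPM (prior count 2), without test. Levels were compared between genes in FPKM, which depends on the exonic length given for each gene. Pathway entries came from the deposited annotation. Facing genes start within 1000 bases on the other strand. Promoter windows are RefSeq's, and GENCODE 29 gave exons. Every called member, and the largest change where a group had no call, is given in full; of each related list up to 4 called genes and the 2 largest changes without a call are named. A few genes are counted but, by exception, not reported here. The members and lists were chosen with earlier results of these data known. The steps were tested on simulated data. Alternatives were RLE and upper quartile scaling, other filters, DESeq2 1.42.0, limma 3.58.1 on log2(FPKM + 1) and log2(FPKM + 0.1), no abundance trend, and leaving out each shUCP2 library. No 2 libraries agreed within sampling noise (chi-square over degrees of freedom 20.6, 21.4 and 8.68). The limit set on 0 counts covers counting error only, and 95% intervals come from the SE. Plots used matplotlib 3.10.9 in Python 3.11.15.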

Additional observations from a re-analysis of the deposited data

How the results depend on the processing

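Of the 11 calls on members, 11 were kept with RLE scaling, 10 with upper quartile scaling, 10 without the filter on low counts, 11 at a mean FPKM of at least 1 and 6 with DESeq2 (MCM4, MCM7, POLD1, POLE3, RFC5 and SSBP1). None was kept with limma or without the abundance trend. Counts of members higher went from 2 to 0 with DESeq2, with limma at either pseudocount (1 and 0.1) and without the trend. Counts of members lower went from 9 to 0 with limma at either pseudocount and without the trend. Over all genes, 952 higher and 931 lower became 327 and 296 with DESeq2, 1 and 1 with limma on log2(FPKM + 1), 1 and 0 on log2(FPKM + 0.1) and 0 and 0 without the trend, where 1770 had an unadjusted p under 0.05. DESeq2 gave no adjusted p to 17449 of 25001 genes.

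Upper quartile scaling moved the median of all genes from 0.02 to 0.04, that of the named members to −0.16, of MCM genes to −0.18, of RFC genes to −0.30, of RPA genes to −0.16 and of MutS and MutL genes to −0.12, and RLE scaling moved that of RPA to −0.19. Signs turned for genes near 0 that had no call: MCM3 (0.0047), RFC4 (0.0151) and DNA2 (0.0184) with upper quartile scaling, and RFC4 (0.0028) and DNA2 (0.0062) with the FPKM filter. Leaving out 1 shUCP2 library leaves no test, and it turned the sign of POLA2 (0.0632 without shUCP2#3), RFC4 (0.0357 without shUCP2#3) and POLD4 (−0.0077 without shUCP2#2), none of them called. Medians then ran from −0.189 to −0.186 for the named members, −0.215 to −0.209 for MCM, −0.212 to −0.112 for polymerases and primase, −0.329 to −0.319 for RFC, −0.178 to −0.178 for RPA, −0.135 to −0.127 for MutS and MutL and −0.193 to −0.132 for the clamp and nuclease group. RNASEH2A was at −0.25 without shUCP2#2. No paired analysis was possible because there is only 1 NC library. Low counts limit POLA2, POLD4, POLE4 and RNASEH2A, whose SE was 0.28 or more.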

Other observations

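A list of E2F factors, their dimer partners, pocket proteins, LIN genes and MYBL2 was also counted. It pools activating and repressive factors, so its counts do not measure E2F activity. Of 18 tested genes 2 were higher (11.1%) and 1 lower, with a median log2 fold change of 0.04, against 6.25% higher and 6.11% lower over all genes tested. E2F3, an activating E2F, had 963 counts in NC, 1324 in shUCP2#2 and 1339 in shUCP2#3 (0.58, SE 0.13, edgeR adjusted p = 0.000182). TFDP2, a dimer partner of the E2Fs, had 2105, 2350 and 2674 counts (0.36, SE 0.10, edgeR adjusted p = 0.00543). E2F4, a mainly repressive E2F, was lower, with 1199, 837 and 794 counts (−0.44, SE 0.13, edgeR adjusted p = 0.0113). LIN54 was at 0.35 (SE 0.14) and E2F8 at 0.34 (SE 0.19), and neither passed.

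Of the specialised and repair DNA polymerases, 14 of 16 were tested, with a median of 0.02. Of these, 1 was higher (7.14%) and 0 lower, near the 6.25% higher over all genes tested, where 6.11% were lower. The higher gene was POLH, which copies past ultraviolet lesions, with 876, 1074 and 1258 counts (0.52, SE 0.13, edgeR adjusted p = 0.00192). Its difference from the replicative POLD1 and POLE3, which were lower, was not tested. POLM, with 130, 93 and 55 counts, was at −0.69 (SE 0.35), and TERT, the telomerase subunit, with 12, 22 and 13 counts, was at 0.66 (SE 1.16). MKI67, a marker of cycling cells chosen after its values were seen, had 2823, 3236 and 3299 counts and was higher, like TOP2A (0.32, SE 0.09, edgeR adjusted p = 0.00959).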
